A study of Mus musculus with 46 samples.

Results

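The genes described here are the 7 mouse genes of the nociceptin and opioid peptide system: the peptide precursors Pnoc, Penk and Pdyn, and the receptors Oprl1, Oprm1, Oprd1 and Oprk1. They were chosen by name, and all 7 were among the 22800 genes of the count table. Each was followed through 46 single oriens-lacunosum moleculare (OLM) interneurons, dendrite-targeting GABAergic cells of the hippocampal stratum oriens. The cells came from mice of postnatal day 21 to 30. Of these, 23 were from an Sst Cre driver line, in which the somatostatin gene drives Cre recombinase, and 23 from an Htr3a Cre driver line, in which a serotonin receptor gene does. The cytosol of each cell was drawn into a patch pipette and sequenced, and each library is 1 cell. The labels name no animal, so each line stands as 1 sample of 23 cells, the lines were compared without a test, and SDs are between cells. The 2 sets are called Sst-Cre and Htr3a-Cre cells here, and single cells by their number within a set. All were labelled as past quality control.

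Endogenous opioid peptides are cut from large precursor proteins and act on receptors of the inhibitory Gi/o class. These receptors lower cyclic AMP, open inwardly rectifying potassium channels and close calcium channels, and so quiet the cell or its terminals. Nociceptin, from Pnoc, acts on the receptor made by Oprl1. Enkephalins, from Penk, act on the delta receptor (Oprd1) and the mu receptor (Oprm1), and dynorphins, from Pdyn, act on the kappa receptor (Oprk1). In the hippocampus, mu receptors are known for silencing interneurons, and dynorphin is best known from dentate granule cells.

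The peptides themselves are short stretches of these precursors, and the coding sequences show how the 3 genes differ. In the annotated transcript with the longest coding sequence, the opioid core (4 codons, Tyr-Gly-Gly-Phe) occurred 7 times in Penk and 3 times in Pdyn. Pnoc held 1 core, which opens with Phe in place of Tyr, the residue that sets nociceptin apart from the classical opioids. All of these cores followed a pair of basic codons, the kind of site at which prohormone convertases cut. The stretches below, read from the GENCODE M21 transcripts of GRCm38, run 5′ to 3′ from that basic pair through the peptide to the next Lys-Arg pair, with the 4 core codons in capitals. They are part of the Pnoc and Penk transcripts, and counts per gene do not show whether any read covers them.
Nociceptin, in Pnoc: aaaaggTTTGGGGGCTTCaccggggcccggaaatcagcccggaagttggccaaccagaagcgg
Met-enkephalin, the first core in Penk: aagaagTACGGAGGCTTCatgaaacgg
Leu-enkephalin, the sixth core in Penk: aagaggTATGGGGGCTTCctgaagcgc

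The 23 Sst-Cre cells held between 5639490 and 31386369 assigned reads, and the 23 Htr3a-Cre cells between 3391829 and 26136222. A median of 6569 genes was read in Sst-Cre cells and 8169 in Htr3a-Cre cells. The labelled cell type was checked against its markers. Sst and Crhbp, which OLM cells express, were read in all cells of both lines, while Chrna2, the nicotinic receptor gene used as an OLM marker, had reads in 6 Sst-Cre and 10 Htr3a-Cre cells. Htr3a-Cre cells 4 and 20 stood apart, with 4 and 24 reads of Gad1, which encodes the GABA-synthesising enzyme. Cell 4 also had 13314 CPM (counts per 1000000 assigned reads) of oligodendrocyte markers, the highest of any cell. The main values that rest on these cells are also given without them.

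Detection of the 7 genes was close to all-or-none. A gene had reads in 103 of the 322 combinations of gene and cell, and in 19 of those it had fewer than 30 reads. The others held between 44 and 17811 reads. The same count was not made over all genes, so this form of detection is not shown to be particular to these 7. The nociceptin pair was the most widely read. Oprl1 had reads in 32 of 46 cells and Pnoc in 27, followed by Oprk1 in 17, Oprd1 in 14, Penk in 7, and Pdyn and Oprm1 in 3 each. As a background, of the 11196 genes whose log2(CPM + 1) averaged 0.5 or more, 40.3% were read in at least 32 cells and 53.1% in at least 27. A count of 0 reads in a line of 23 cells would allow a share of up to 13.04% of cells with a read, taking 3 cells as the limit. No molecular identifiers are named for these libraries, so intervals of summed levels cover the counting of reads only, not of molecules. Intervals of shares take the cells as independent, though cells may share an animal.

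**Figure D1:**
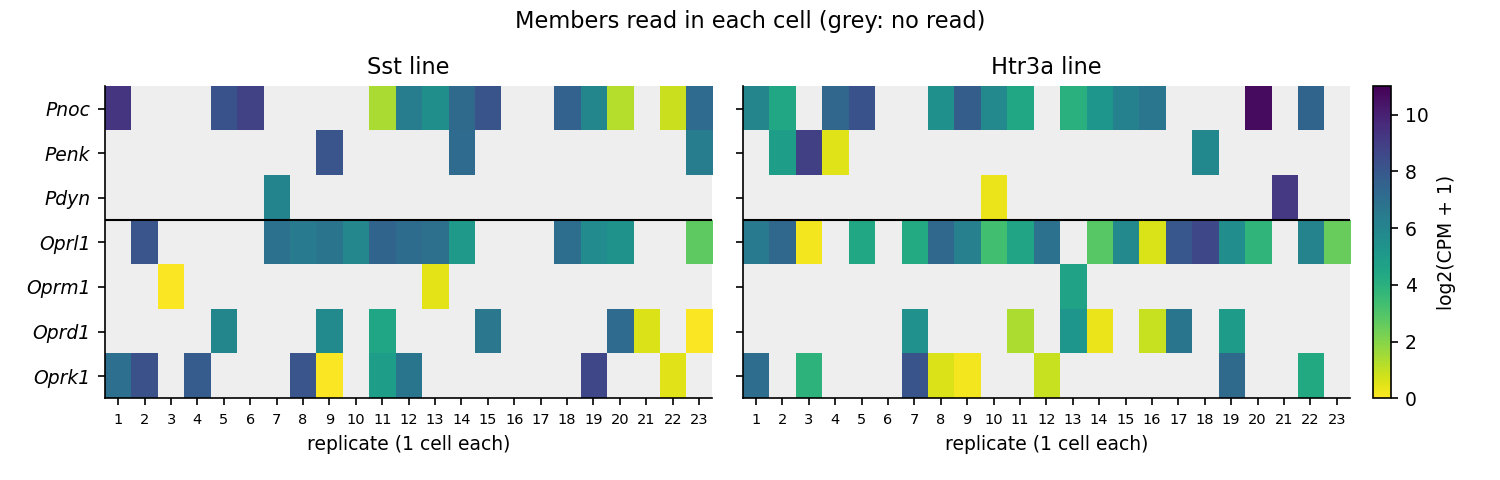
Each column is 1 cell, named by its replicate number within the line, and each row is 1 gene, with the 3 peptide precursors above the black line and the 4 receptors below it. Colour gives the level as log2(CPM + 1) and grey marks cells with no read. Pnoc and Oprl1 fill most of their rows in both lines, Penk, Pdyn and Oprm1 appear in 7, 3 and 3 cells, and no cell holds more than 4 of the 7 genes.

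Between the lines, none of the 7 genes differed by 1 or more on the log2(CPM + 1) scale. The difference is the mean over Sst-Cre cells minus the mean over Htr3a-Cre cells. Of the 5 genes with a mean of at least 0.5 (Pnoc, Penk, Oprl1, Oprd1 and Oprk1), 0 were higher by at least 1 among Sst-Cre cells and 0 were lower by at least 1. Over all 11196 genes above that minimum, 4.24% were higher and 14.9% lower by that much, and the median difference was -0.22. Over all 7 genes, 3 (Penk, Oprd1 and Oprk1) were higher and 4 lower among Sst-Cre cells, though Penk was at -0.008 on the authors' normalized scale. On that scale, as log2(value + 1), Oprl1 was at -1.41 and Oprk1 at 1.03, both past 1, where the median of all genes was -0.45. Without Htr3a-Cre cell 7, Oprk1 was at 1.16 on the CPM scale. With all cells, each difference was smaller than the SD between cells of at least 1 line.

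**Figure D2:**
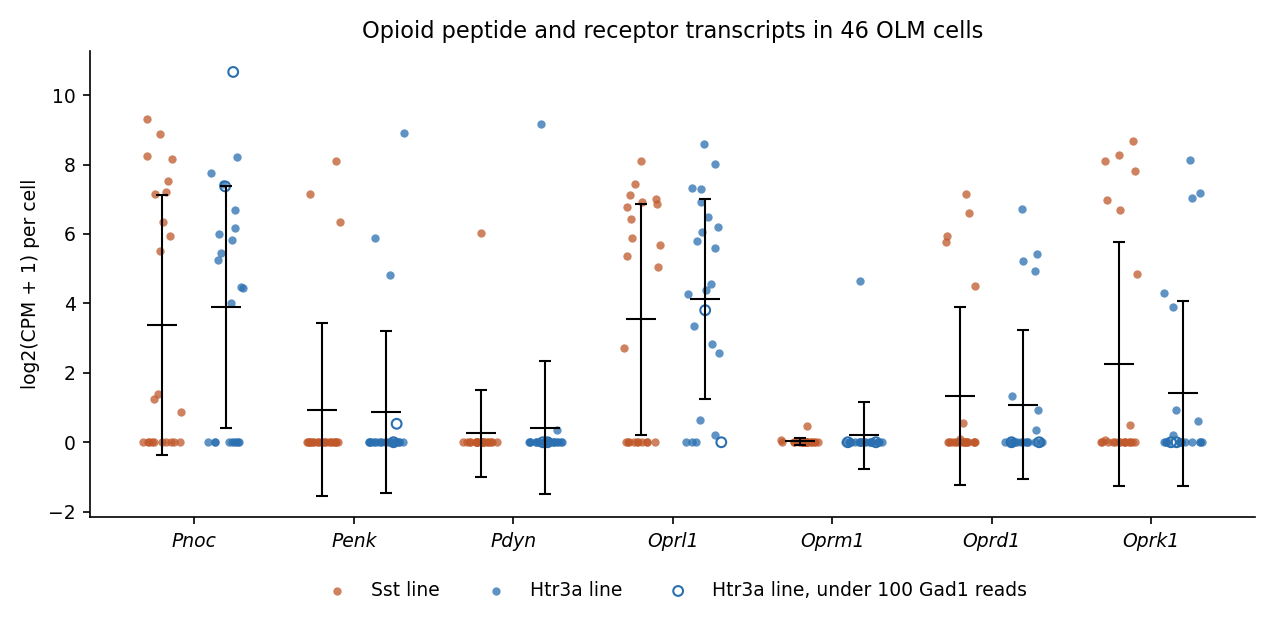
Level of each gene as log2(CPM + 1) on the vertical axis, with 1 point per cell, for the Sst line (left of each pair) and the Htr3a line (right). Black bars give the mean and SD over 23 cells, and open circles are the 2 Htr3a-Cre cells with fewer than 100 Gad1 reads. For each gene the points of the 2 lines overlap, with cells at 0 in both.

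Of the peptide precursors, Pnoc was the one read in most cells. Pnoc (ENSMUSG00000045731, chromosome 14, 65400673 to 65425472, minus strand, GRCm38, protein-coding) had reads in 13 of 23 Sst-Cre cells (56.5%, exact 95% interval 34.5 to 76.8) and 14 of 23 Htr3a-Cre cells (60.9%, 38.5 to 80.3). In the cells with a read, its level had a lowest value of 0.837, a median of 141 and a highest value of 630 CPM among Sst-Cre cells, and a lowest of 15.1, a median of 67.0 and a highest of 1626 CPM among Htr3a-Cre cells. The ranges overlap, and the 3 lowest cells, with 6, 21 and 27 reads, were all of the Sst line. The highest Htr3a-Cre cell was cell 20, the cell with 24 Gad1 reads.

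The mean log2(CPM + 1) of Pnoc was 3.38 ± 3.74 (SD, 23 cells) among Sst-Cre cells and 3.90 ± 3.48 (23 cells) among Htr3a-Cre cells, a difference of -0.52. Without the 2 Htr3a-Cre cells of few Gad1 reads it was -0.04, and the share of Htr3a-Cre cells with Pnoc was 57.1%. Counts summed over cells went the other way, at 107 CPM among Sst-Cre cells (95% Poisson interval 106 to 108) and 70.7 CPM among Htr3a-Cre cells (69.8 to 71.6). Sst-Cre cell 1 alone held 45.0% of the Sst-Cre reads, and without it the sum was 63.8 CPM. Without the 2 Htr3a-Cre cells of few Gad1 reads the Htr3a-Cre sum was 52.3 CPM and the log2 ratio of sums 1.02 in place of 0.59. At least 10 CPM of Pnoc was reached in 10 Sst-Cre and 14 Htr3a-Cre cells. Which line was higher therefore turned on how cells were weighed and on single cells.

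Penk was rare but high where present. Penk (ENSMUSG00000045573, chromosome 4, 4133531 to 4138819, minus strand) had reads in 3 of 23 Sst-Cre cells (13.04%, 2.78 to 33.6) and 4 of 23 Htr3a-Cre cells (17.4%, 4.95 to 38.8). The Sst-Cre cells were cells 9, 14 and 23, with 272, 142 and 79.7 CPM. The Htr3a-Cre cells were cells 3, 18, 2 and 4, with 477, 57.8, 27.2 and 0.446 CPM. The last of these rests on 4 reads in the cell with 4 Gad1 reads, and 3 cells of each line held at least 10 CPM. Summed over cells, Penk had 22.7 CPM (22.2 to 23.1) among Sst-Cre cells and 22.9 CPM (22.4 to 23.4) among Htr3a-Cre cells. Its mean difference was 0.06, or 0.005 without the 2 cells of few Gad1 reads, with SDs of 2.49 and 2.33 in Sst-Cre and Htr3a-Cre cells. Cell 9 held 73.7% of the Sst-Cre reads and cell 3 held 81.4% of the Htr3a-Cre reads, and without them the sums were 6.35 and 4.44 CPM. An opposite-strand transcript, A830012C17Rik, overlaps 233 of the 1634 exonic bases of Penk. How strand was treated in counting is unknown from the labels, and reads of the pair cannot be told apart there.

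Pdyn was read in single cells. Pdyn (ENSMUSG00000027400, chromosome 2, 129686565 to 129699844, minus strand) had 1036 reads (63.7 CPM) in Sst-Cre cell 7 and none in the other 22 Sst-Cre cells. In the Htr3a line it had 6218 reads (580 CPM) in cell 21 and 5 reads in cell 10, the cell with the most genes read (12693). Cell 21 of the Htr3a line thus held 99.9% of the Pdyn reads of its line, and the summed level, 2.81 CPM among Sst-Cre cells and 18.1 CPM among Htr3a-Cre cells, changed order without it.

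Pdyn and Penk also mark other hippocampal cells, so markers of those cells were read beside them. In Sst-Cre cell 7 and Htr3a-Cre cell 21, Prox1, used here as a marker of dentate granule cells, had 0 reads. Slc17a7, the glutamate transporter of pyramidal cells, and Vip and Cck, which mark other interneurons, also had 0 reads in both. Summed over all 9 markers of other interneuron classes, however, Sst-Cre cell 7 had 1449 CPM from 5 genes and Htr3a-Cre cell 21 had 551 CPM from 3 genes. Over pyramidal cell markers these cells had 3.57 and 46.4 CPM, and over granule cell markers 95.1 and 289 CPM. Cell 21 also had 1635 CPM of oligodendrocyte and 633 CPM of microglial markers. Gad1 was at 1917 and 2097 CPM and Sst at 7866 and 28653 CPM in these cells. Of the 5 granule cell markers, 1 was read in each of them, Stxbp6, which was read in 16 Sst-Cre and 21 Htr3a-Cre cells overall. In the 6 cells with at least 10 CPM of Penk, Prox1, Slc17a7 and Vip had 0 reads, and Cck had 268 reads in Sst-Cre cell 14 and 0 in the others. The sum over markers of other interneuron classes ran from 0 to 678 CPM in these 6 cells. Over pyramidal cell markers it ran from 0 to 76.1 CPM, and over granule cell markers from 0 to 335 CPM. Among all cells, Prox1 and Vip were read only in Htr3a-Cre cell 10, and Slc17a7 only there and in Htr3a-Cre cell 6. Having 0 reads of these genes was thus common to nearly all cells. Sst-Cre cell 14 also held 5605 CPM of microglial and 3744 CPM of oligodendrocyte markers, and Htr3a-Cre cell 3 held 720 and 934 CPM of them. The part of these markers in the Penk and Pdyn levels was not tested.

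The nociceptin receptor was the most widely read of the receptors, and at a minimum of 1 read the member for which the shares of the lines lay farthest apart. Oprl1 (ENSMUSG00000027584, chromosome 2, 181715016 to 181720985, plus strand) had reads in 13 of 23 Sst-Cre cells (56.5%, 34.5 to 76.8) and 19 of 23 Htr3a-Cre cells (82.6%, 61.2 to 95.05), intervals that overlap. In cells with a read, the lowest, median and highest levels were 5.58, 109 and 273 CPM among Sst-Cre cells and 0.149, 47.2 and 387 CPM among Htr3a-Cre cells. At least 10 CPM was reached in 12 Sst-Cre and 14 Htr3a-Cre cells, a gap of 2 cells in place of 6 and smaller than that of Pnoc at this minimum. The mean log2(CPM + 1) was 3.54 ± 3.33 (SD, 23 cells) among Sst-Cre cells and 4.13 ± 2.88 (23 cells) among Htr3a-Cre cells, a difference of -0.59. The summed levels were 60.9 CPM (60.1 to 61.7) and 68.5 CPM (67.6 to 69.4) in Sst-Cre and Htr3a-Cre cells, an order that turned round without Htr3a-Cre cell 17 or cell 18. Without the 2 cells of few Gad1 reads the mean difference was -0.80 and the share of Htr3a-Cre cells 85.7%. Among Sst-Cre cells, the level of Oprl1 went with the number of genes read per cell (Spearman's rho 0.61 over 23 cells). Among Htr3a-Cre cells the same rho was 0.03 (23 cells). The part of genes read in the difference between shares was not tested.

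The kappa receptor gene had the widest mean difference of the 7 between the lines on the log2(CPM + 1) scale. Oprk1 (ENSMUSG00000025905, chromosome 1, 5588466 to 5606131, plus strand) had reads in 9 of 23 Sst-Cre cells (39.1%, 19.7 to 61.5) and 8 of 23 Htr3a-Cre cells (34.8%, 16.4 to 57.3). Levels in those cells ran from 0.0441 to 407 CPM with a median of 125 among Sst-Cre cells, and from 0.156 to 280 CPM with a median of 16.4 among Htr3a-Cre cells. At least 100 CPM was reached in Sst-Cre cells 19, 2, 8, 4, 1 and 12, at 407, 308, 275, 223, 125 and 103 CPM, and in Htr3a-Cre cells 7, 19 and 1, at 280, 145 and 131 CPM. The mean log2(CPM + 1) was 2.26 ± 3.51 (SD, 23 cells) among Sst-Cre cells and 1.41 ± 2.67 (23 cells) among Htr3a-Cre cells, a difference of 0.85. Counts summed to 80.7 CPM (79.8 to 81.7) among Sst-Cre cells and 25.3 CPM (24.7 to 25.8) among Htr3a-Cre cells, a log2 ratio of 1.64. With each cell left out in turn the ratio lay between 1.19 and 2.498, on the same side of 0. Summed counts give more weight to cells with more assigned reads. The Spearman's rho of the Oprk1 level with assigned reads was 0.43 among Sst-Cre cells and -0.27 among Htr3a-Cre cells (23 cells each). The part of depth in the ratio was not tested. Without the 2 cells of few Gad1 reads the mean difference was 0.72. Sst-Cre cell 19 held 31.8% of the Sst-Cre reads, and without it the sum was 58.8 CPM. Htr3a-Cre cell 7 held 49.0% of the Htr3a-Cre reads, and without it the sum was 13.5 CPM. The intervals of the sums cover the counting of reads only, and the spread between cells exceeded the mean difference.

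The delta receptor gene was read in the same number of cells in each line. Oprd1 (ENSMUSG00000050511, chromosome 4, 132110726 to 132144486, minus strand) had reads in 7 of 23 cells of each line (30.4%, 13.2 to 52.9). It reached at least 10 CPM in 5 Sst-Cre and 4 Htr3a-Cre cells. Levels in cells with a read ran from 0.0569 to 140 CPM with a median of 53.7 among Sst-Cre cells, and from 0.268 to 104 CPM with a median of 29.5 among Htr3a-Cre cells. The mean difference was 0.25, with SDs of 2.55 and 2.15 in Sst-Cre and Htr3a-Cre cells, and the summed levels were 14.4 and 10.7 CPM. Without Sst-Cre cell 20 the Sst-Cre sum was 8.83 CPM, which turned the order, and without Htr3a-Cre cell 17 the Htr3a-Cre sum was 5.66 CPM.

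The mu receptor gene was read in 3 cells, and in 1 of them by more than 3 reads. Oprm1 (ENSMUSG00000000766, chromosome 10, 6758506 to 7038198, plus strand) had 1 and 3 reads in Sst-Cre cells 3 and 13, and 527 reads (24.2 CPM) in Htr3a-Cre cell 13. It had no read in the other 43 cells. Summed over cells this was 0.0108 CPM (0.00295 to 0.0277) among Sst-Cre cells and 1.53 CPM (1.40 to 1.67) among Htr3a-Cre cells, where all reads came from 1 cell. That cell also had 787 reads of Oprd1 and 328 of Pnoc, and 34893 of Gad1.

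**Figure D3:**
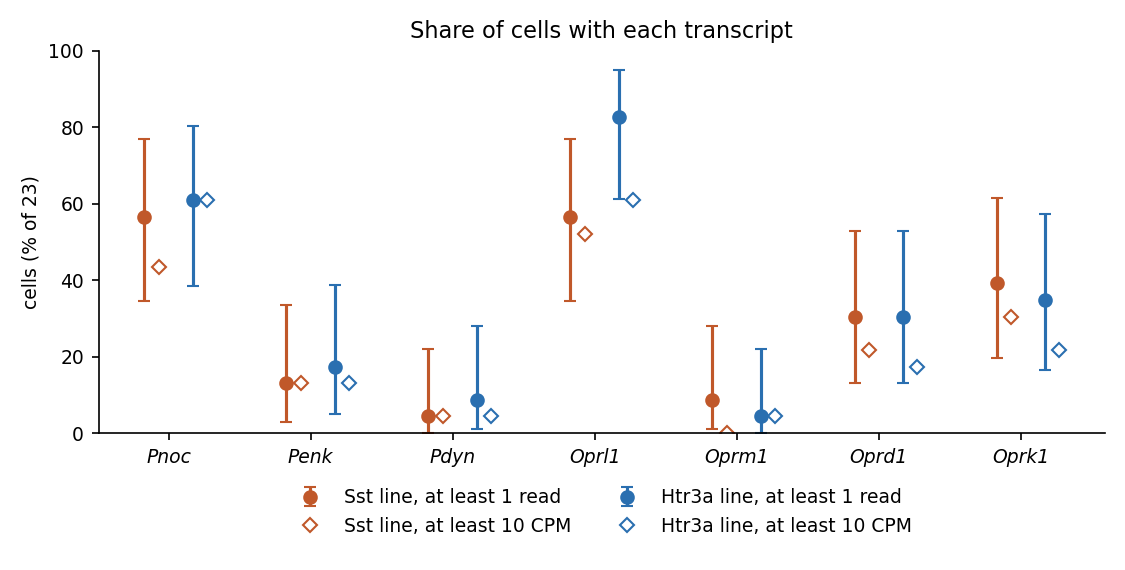
Share of the 23 cells of each line with each gene, in percent, for the Sst line (left of each pair) and the Htr3a line (right). Filled circles count cells with at least 1 read and carry exact 95% binomial intervals, and open diamonds count cells with at least 10 CPM. The intervals of the 2 lines overlap for all 7 genes, and Oprl1 among Htr3a-Cre cells loses most under the higher minimum, with 14 cells in place of 19.

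Levels were compared between genes only per length, as reads per kilobase of exon and 1000000 assigned reads (RPKM). Over all 46 cells, mean RPKM was 52.95 ± 122 (SD) for Pnoc, 16.4 ± 22.7 for Oprl1, 14.04 ± 50.6 for Penk, 4.89 ± 10.8 for Oprk1, 4.85 ± 29.7 for Pdyn, 3.18 ± 7.72 for Oprd1 and 0.0667 ± 0.444 for Oprm1. The gap between neighbours in this order was smaller than the SD of both for 4 of the 6 pairs of neighbours. It exceeded the smaller of the 2 SDs, but not the larger, between Pnoc and Oprl1 and between Oprd1 and Oprm1. Without the 2 cells of few Gad1 reads, the mean of Pnoc was 36.5 ± 63.1 RPKM (SD, 44 cells). In cells with a read, the median RPKM was 48.8 for Penk (7 cells), 37.2 for Pnoc (27 cells), 22.1 for Pdyn (3 cells), 16.5 for Oprl1 (32 cells), 11.3 for Oprk1 (17 cells) and 8.16 for Oprd1 (14 cells). This order did not hold within lines. Among Sst-Cre cells the Oprl1 median of 29.1 RPKM was above the single Pdyn value of 22.1 RPKM. Among Htr3a-Cre cells the Penk median of 25.99 RPKM was below that of Pnoc, 31.1 RPKM.

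Most cells that carried a peptide carried Pnoc alone. Pnoc was the single precursor in 11 cells of each line. Pnoc with Penk was read in 2 Sst-Cre and 2 Htr3a-Cre cells, Penk alone in 1 and 2, Pdyn alone in 1 of each line, and Pnoc with Pdyn in 1 Htr3a-Cre cell, where Pdyn had 5 reads. Penk and Pdyn were read together in 0 of 46 cells, which by the limit of 3 cells leaves room for a share of 6.52%. No precursor was read in 8 Sst-Cre and 6 Htr3a-Cre cells.

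Among receptors, Oprl1, read in 69.6% of all cells, was the common partner. It was the only receptor read in 4 Sst-Cre and 7 Htr3a-Cre cells, was joined by Oprk1 alone in 4 and 6, by Oprd1 alone in 2 and 4, and by both in 2 cells of each line. Of the 17 cells with Oprk1, 14 also had Oprl1 (82.4%, exact 95% interval 56.6 to 96.2), against 18 of the 29 cells without Oprk1. The share without Oprk1 lay inside that interval. By line, Oprl1 was read in 6 of 9 Oprk1 cells among Sst-Cre cells and 8 of 8 among Htr3a-Cre cells. Seen from the other gene, 43.8% of the 32 Oprl1 cells had Oprk1. Some cells with both genes held few reads of 1 of them. Oprk1 had 1 read in Sst-Cre cell 9 and 5, 3 and 12 reads in Htr3a-Cre cells 8, 9 and 12. Oprl1 had 2 reads in Htr3a-Cre cell 3. Of the 14 cells with Oprd1, 10 also had Oprl1 (71.4%), near the share of all cells with Oprl1. Oprd1 without any other receptor was read in 3 Sst-Cre and 0 Htr3a-Cre cells, as was Oprk1 without any other. No receptor was read in 3 cells of each line. Over 46 cells the number of the 7 genes read in a cell went with the number of all genes read there (Spearman's rho 0.51). Gene by gene, the rho of level with genes read was 0.36 for Oprl1, 0.25 for Oprd1, 0.13 for Oprk1 and 0.08 for Pnoc. It was 0.03 for Pdyn, 0.005 for Oprm1 and -0.05 for Penk. The part of genes read in these overlaps was not tested.

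Peptide and receptor were read in the same cell mainly for nociceptin. Pnoc and Oprl1 were both read in 8 Sst-Cre and 12 Htr3a-Cre cells. These were 61.5% (31.6 to 86.1) and 85.7% (57.2 to 98.2) of the Pnoc cells of Sst-Cre and Htr3a-Cre cells. Among cells without Pnoc, Oprl1 was read in 5 of 10 among Sst-Cre cells and 7 of 9 among Htr3a-Cre cells. In each line the share without Pnoc, 50.0% and 77.8%, lay inside the interval of the share with Pnoc. Without the 2 cells of few Gad1 reads, both genes were read in 52.4% of the Htr3a-Cre cells left. With at least 10 CPM of both genes the counts were 5 Sst-Cre and 9 Htr3a-Cre cells. Over cells, the levels of the pair had a Spearman's rho of -0.11 (23 Sst-Cre cells) and 0.03 (23 Htr3a-Cre cells).

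The 4 cells with the most Pnoc per line differed in their Oprl1 reads, a pattern chosen after its values were seen. In the Sst line these were cells 1, 6, 5 and 15, with 630, 469, 301 and 285 CPM of Pnoc, and all 4 had 0 Oprl1 reads. In the Htr3a line they were cells 20, 5, 9 and 22, with 1626, 297, 216 and 174 CPM of Pnoc, and they had 44, 286, 1413 and 647 Oprl1 reads. The receptors read in the 4 Sst-Cre cells were Oprk1 in cell 1 (3542 reads) and Oprd1 in cells 5 and 15 (705 and 828 reads). The pattern ended at the next cell of each line. Sst-Cre cell 18, with 185 CPM of Pnoc, had 907 Oprl1 reads. Htr3a-Cre cell 4, with 165 CPM of Pnoc and few Gad1 reads, had 0 Oprl1 reads.

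**Figure D4:**
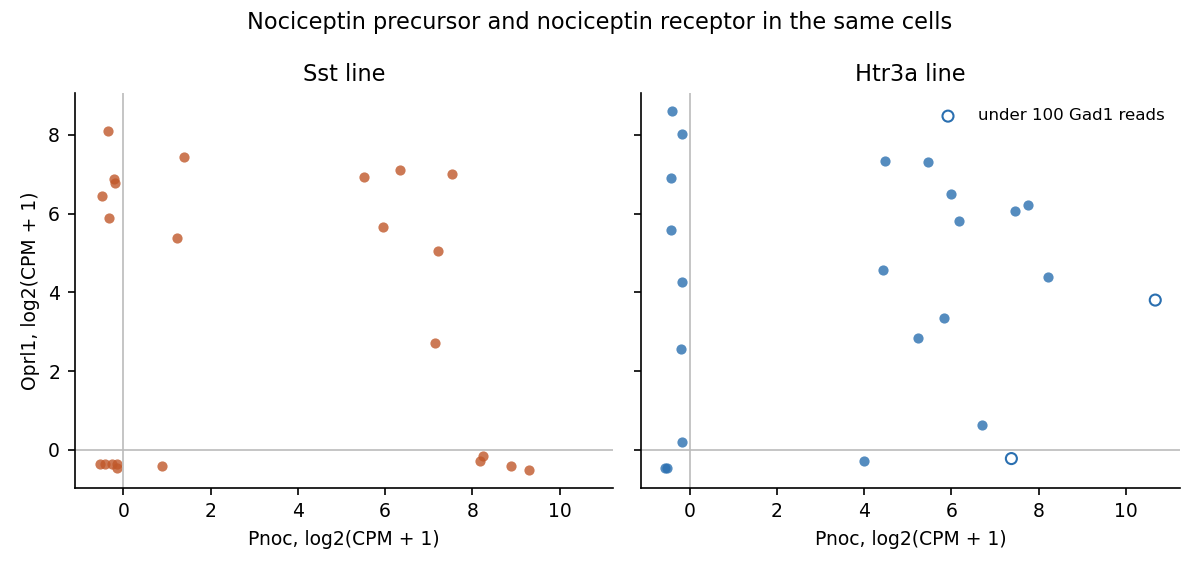
Level of Oprl1 (vertical axis) against that of Pnoc (horizontal axis), both as log2(CPM + 1), with 1 point per cell, for the Sst line (left) and the Htr3a line (right). Cells with no read of a gene are drawn just below 0 and spread for visibility, and open circles are the 2 Htr3a-Cre cells with fewer than 100 Gad1 reads. In the Sst line the 4 cells with the most Pnoc lie below the Oprl1 axis zero, while the 4 highest Htr3a-Cre cells have Oprl1 reads. The next cell of each line goes the other way, with Oprl1 reads in the Sst line and none in the Htr3a line.

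Few cells held Penk or Pdyn, and fewer held them with a receptor of their own. Penk and Oprd1 were both read in 2 Sst-Cre and 0 Htr3a-Cre cells. The 2 cells were Sst-Cre cell 9, with 6162 Penk and 1219 Oprd1 reads, and cell 23, where Oprd1 had 1 read. Over both lines Oprd1 was read in 2 of 7 Penk cells (28.6%) and in 12 of 39 cells without Penk (30.8%). Penk and Oprm1 were both read in 0 of 46 cells, as were Pdyn and Oprk1, where 3 Pdyn cells set an exact 95% upper limit of 70.8% on the share with Oprk1. Oprl1 was read in 6 of 7 Penk cells (85.7%), 1 of them by 2 reads, and in 26 of 39 cells without Penk (66.7%). Among Htr3a-Cre cells the order was the opposite, with 3 of 4 Penk cells and 16 of 19 cells without Penk. Counting any peptide with a receptor of its own, 9 of 23 Sst-Cre cells (39.1%, 19.7 to 61.5) and 12 of 23 Htr3a-Cre cells (52.2%, 30.6 to 73.2) had such a pair, and in all but Sst-Cre cell 9 it was, or included, Pnoc with Oprl1.

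Other genes with a pattern over the 46 cells like that of a member were ranked by Spearman's rho of log2(CPM + 1) among 10004 genes read in at least 12 cells. For Pnoc they were Igsf21 (0.53), Tbc1d25 (0.52) and Chadl (0.51), for Oprl1 Nubp1 (0.59), Tvp23a (0.59) and Rdh14 (0.58), for Oprd1 Sp140 (0.59), Tmem189 (0.54) and A830018L16Rik (0.54), and for Oprk1 Pfkm (0.61), Lrrc4b (0.56) and Chd1 (0.55). Ranking within single lines of 23 cells returned at most 1 of the 3 genes for any member, so these genes depended on the set of cells. Penk, Pdyn and Oprm1 were read in too few cells to rank.

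Genes of the wider pathway were gathered in 9 lists, for Gi/o signalling, for peptide making and breakdown, and for other opioid-related genes. Of the 65 genes measured, 10 were read in at least 22 cells of each line, while some had no read in 1 line or in both. In all, 54 of the 65 had a mean of at least 0.5, of which 20 were higher and 34 lower among Sst-Cre cells. Their median difference was -0.24. The 37.0% that were higher compare with 37.4% of all genes above the minimum. By at least 1, 2 were higher and 7 lower, or 3.70% and 12.96%, near the 4.24% and 14.9% of all genes. Differences of named genes are given on the log2(CPM + 1) scale. By summed CPM 5 of the 25 genes named by rule had the other sign, with log2 ratios of 0.69 for Ogfr, 0.10 for Gnai3, 0.14 for Kcnj9, 0.45 for Cacna1b and 0.50 for Grk6.

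Of the 9 G protein subunits, 4 were higher and 5 lower, with a median of -0.09. Gng2, a gamma subunit, was at -1.77, with means of 6.14 ± 3.50 among Sst-Cre cells and 7.91 ± 2.002 among Htr3a-Cre cells (SD, 23 cells each). Gnaz, an alpha subunit of the Gi family, was at -1.34, and Gnai3, an inhibitory alpha subunit, at -0.92. Of the GIRK potassium channel genes above the minimum, Kcnj9 was at -0.81, with the other sign by summed CPM, and Kcnj3 at -0.72. They were read in 11 and 9 Sst-Cre and 14 and 11 Htr3a-Cre cells. Of the calcium channels that Gi/o proteins inhibit, Cacna1a was at 1.03 and Cacna1b at -0.96, with the other sign by summed CPM. Of 7 adenylyl cyclases, 2 were higher and 5 lower (median -0.49), with Adcy3 at -1.32, Adcy6 at 0.70 and Adcy1 at -0.62.

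Genes that end receptor signalling lay on both sides. Of 5 receptor kinases and arrestins, 3 were higher and 2 lower (median 0.71). Arrb2, an arrestin, was at 0.98, Adrbk1, a kinase that marks active receptors for arrestin, at 0.81, and Grk6, another such kinase, at -0.96. Of 9 RGS genes, whose products speed G protein shut-off, 3 were higher and 6 lower (median -0.08). Rgs4 was read in 10 Sst-Cre and 19 Htr3a-Cre cells (2.47 ± 3.57 and 5.33 ± 3.86, SD, 23 cells each, difference -2.85) and Rgs9 in 5 and 13 (-1.85), while Rgs19 was at 0.89. Of 7 further opioid-related genes, 4 were higher and 3 lower (median 0.04). These included Ogfr, the opioid growth factor receptor (-0.37), and Npffr1, a receptor of the neuropeptide FF family (0.31).

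Making and breaking down the peptides needs further enzymes. Of 7 prohormone processing genes, 2 were higher and 5 lower (median -0.31). Cpe, the carboxypeptidase that trims the basic residues, was read in 23 cells of each line (difference 0.55, with 10.90 ± 0.74 among Sst-Cre cells and 10.35 ± 1.18 among Htr3a-Cre cells, SD, 23 cells each). The convertases that cut at the basic pairs were sparser. Pcsk1 was read in 5 Sst-Cre and 16 Htr3a-Cre cells (0.85 ± 1.90 and 3.75 ± 2.88, SD, 23 cells each, difference -2.90), and Pcsk2 in 8 and 14 (-0.90). Of 6 peptide breakdown genes, 1 was higher and 5 lower (median -0.34), with Npepps at -1.01, Ece1 at -0.76 and Dpp3, an enkephalin-cleaving peptidase, at -0.43.

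Markers of other cell types were read beside the members. Of the OLM markers, 2 were higher and 5 lower among Sst-Cre cells, 1 and 3 of them by at least 1 (median -0.85), with median sums of 12712 CPM in Sst-Cre and 20072 CPM in Htr3a-Cre cells. All 9 microglial markers were higher among Sst-Cre cells, with a median difference of 0.41, and of 4 oligodendrocyte markers above the minimum 3 were higher and 1 lower (median 0.30). Of 6 astrocyte markers 1 was higher and 5 lower (median -0.34), of 3 pyramidal cell markers 1 and 2 (median -0.69), and of 6 markers of other interneuron classes 2 and 4 (median -0.09). Summed over 9 microglial markers, Sst-Cre cells had a median of 435 CPM (range 0 to 8597) and Htr3a-Cre cells 257 CPM (0 to 8394), and over 8 oligodendrocyte markers 196 CPM (0.473 to 5324) and 114 CPM (0.144 to 13314). Over 46 cells, the Spearman correlations of the 7 members with these 2 sums ranged from -0.30 (Oprl1 with oligodendrocyte markers) to 0.18 (Oprk1 with oligodendrocyte markers). The Oprd1 level had rho of 0.15 with the microglial sum. These are descriptions over cells that differ in library depth, and the part of other cells' RNA in the members' levels was not tested.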

How the data were processed

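RNA of single patched OLM cells was measured in 46 libraries. The deposited tables hold whole-number read counts per gene, by symbol and by Ensembl identifier. Per the submitters' processing notes, Trimmomatic, STAR, featureCounts and GRCm38 were used, while versions, annotation and any strand option were not given in the sources used here. In a further deposited table the authors divided each count by 1 factor per cell, a linear signal. All 7 genes had identical counts in both count tables.

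Levels are CPM, each cell's counts by symbol scaled to a total of 1000000, or log2(CPM + 1). Shares carry exact Clopper-Pearson 95% intervals and summed CPM exact Poisson 95% intervals, and a count of 0 is given the limit of 3 cells. RPKM used exon unions of GENCODE M21. The log2 ratio of summed CPM adds 1 to each sum. The text names all 7 genes, the 3 most similar genes of each member read in at least 12 cells, and up to 3 genes per pathway list by size of difference. A gene that this rule names and a peptide sequence are not reported here. Genes and lists were chosen with earlier results of these data known. Calculations were tested on simulated data. Of 1035 library pairs, 0 were identical. Alternatives used edgeR 4.0.16, DESeq2 1.42.0 (size factors only), other minimums and thinning to 5000000 reads. The tools were Python 3.11.15, numpy 2.4.6, pandas 2.3.3, scipy 1.17.1 and R 4.3.3.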

Additional observations from a re-analysis of the deposited data

How the results depend on the processing

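Of 824 recomputed values, 807 stayed within a set limit, and 17 moved further or reversed. For line differences and summed ratios the limit was the smaller SD between cells of the 2 lines, such as 3.48 for Pnoc and 2.33 for Penk. For shares it was the interval, and median levels, similar genes and pathway counts had limits of their own. With SDs this wide, a value of size under 1 could change sign within the limit. The count of 807 therefore does not show that values were stable. Of 693 recomputed line differences and summed ratios, 35 had another sign, 22 of them the Penk summed ratio, which lay near 0. At a minimum of 10 CPM the Oprl1 share of Htr3a-Cre cells was 60.9%, and the Oprm1 share of Sst-Cre cells was 0% at 10 CPM and at 5 reads. Without Htr3a-Cre cell 13 the Oprm1 summed ratio was 0.0155 in place of -1.32 and its line difference 0.0239, and without Htr3a-Cre cell 21 the Pdyn summed ratio was 1.91 in place of -2.33, since these cells hold nearly all reads of their line. The Oprm1 line difference was -0.0744 with a pseudocount of 10. Leaving out each cell in turn gave line differences of -0.79 to -0.21 (Pnoc), -0.26 to 0.43 (Penk), -0.41 to 0.25 (Pdyn), -0.80 to -0.39 (Oprl1), -0.20 to 0.02 (Oprm1), -0.02 to 0.50 (Oprd1) and 0.56 to 1.16 (Oprk1). Summed ratios ranged from -0.15 to 0.94 (Pnoc), -1.70 to 2.12 (Penk), -4.25 to 1.91 (Pdyn), -0.43 to 0.28 (Oprl1), -1.39 to 0.02 (Oprm1), -0.25 to 1.21 (Oprd1) and 1.19 to 2.498 (Oprk1). On the deposited normalized scale, Oprl1 was at -1.41 and Oprk1 at 1.03, past 1, and Penk changed sign at -0.008. The share of all genes past 1 there was not counted. The median of all genes was -0.45 there, between -0.30 and -0.06 in the others. Without the 2 cells of few Gad1 reads, a choice made after seeing the data for shares, each share stayed within its interval. Genes similar to Oprd1 shared 1 of 3 with a minimum of 23 cells. The cause of the other shifts was not tested. No paired analysis was possible because the labels give no animal and no replicate number that pairs cells across the lines.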
